A study of Cricetulus griseus with 8 samples.

Results

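Heat shock chaperones of the cytosol and the mitochondria, with their co-chaperones and transcription factors, were examined in LR73 phagocytes that met apoptotic cells. The genes were taken by symbol from a list of 47, and 45 of them were found among the 26776 named genes of the deposited table. Hspa1b and Hspe1 were not matched and were not analysed here. LR73 is a line derived from Chinese hamster ovary that the labels call fibroblast, and it was grown in alpha-MEM medium with serum. In 1 group of 4 libraries the LR73 cells were alone, and in the other group of 4 they were co-cultured with Jurkat cells, a human T cell lymphoma line. Per the labels, the Jurkat cells received 1500 mJ of UV-C light and were kept for 4 h before they were added. The length of the co-culture is not given in the sources used here. The column names of both groups begin with GFP, which the labels do not explain. The libraries are named biological replicates in the series design text, with no word on how the cultures were separated, so p-values measure the spread between these libraries.

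Heat shock proteins are named for their induction by heat, but many are made constantly and help new or damaged proteins to fold. HSP70 binds short exposed stretches of a client, delivered by HSP40 (J-domain) proteins, and releases it with the help of exchange factors such as HSP110 and BAG proteins. HSP90 takes over a later set of clients, among them kinases and steroid receptors, with co-chaperones that pass clients on or set its ATPase cycle. The TRiC/CCT ring folds actin and tubulin, mitochondria hold their own HSP70, HSP60 and HSP90, and the heat shock factor HSF1 is the best known activator of the heat-inducible members.

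With apoptotic cells, the constitutive cytosolic HSP70 gene Hspa8 rose by 25.8% in mean level, Chordc1 by 16.9%, and Tcp1, Hsph1, Hsp90aa1, Hspa9 and Stip1 by 7.75 to 13.2%, while Hspa12a fell by 19.2%. Of the 43 members that had a mean of at least 10 normalized counts (reads divided by the size factor of the library), 7 rose, 1 fell and 35 did not pass the test, which was limma-trend on log2(normalized count + 1) with a Benjamini-Hochberg adjusted p under 0.05 over 13494 genes. Over the 17 alternatives that were run, the calls of Stip1, Tcp1 and Chordc1 were lost in 10, 8 and 1, and the others held in all. Among all genes tested 6.36% were higher and 5.31% lower, against 16.3% and 2.33% of the members. The members were chosen with earlier results of these data known, so their counts describe them and were not tested against other genes. Hspa1a, the heat-inducible HSP70, was listed at 0 in all 8 libraries, and Hspa4l, an HSP110 relative, had means of 1.38 and 1.60 normalized counts, so neither was tested. How reads shared by near-identical copies such as Hspa1a and Hspa1b were counted is not given in the sources used here, so the listed 0 does not show that the gene was silent. The median log2 fold change of the 43 was 0.07, and that of all genes tested was 0.0015.

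Depth in named genes ran from 22.7 to 29.7 M (mega) reads. Alone library 1 stood apart from the other 7, with a first principal component score of -25.1 beside -9.13 to -5.65 for the others of its group and 9.82 to 13.6 for the co-cultures. It was the highest of the alone libraries in 31 of the 43 members (72.1%, against 39.4% of all genes tested), and its members stood a median of 0.10 (log2) above the mean of the other alone libraries. For ribosomal protein genes that median was 0.28. A mean of 10 normalized counts was reached by 7 of 11 fibroblast markers, Vim and Fn1 among them, while Col1a1, Col1a2, Fbln2 and Thy1 stood at 0 or at trace level. The fibroblast markers summed to 152410 to 155780 normalized counts alone and 173740 to 175870 in co-culture. Within this sum Vim went from a mean of 111960 to 130760 and was called higher (log2 fold change 0.22, limma adjusted p = 0.00281). Fn1 went from 31773 to 34175 without a call. Sparc and S100a4 went the other way, from means of 7773 to 7328 and 2002 to 1740. Neither was called with all libraries (limma adjusted p = 0.109 and 0.146), and both were called lower without alone library 1 (0.00207 and 0.0463). Among 19 T cell markers, 16 had means under 10 normalized counts, and of these 10 had more reads in the co-cultures, 1 had fewer and 5 had none, with summed levels of 6.21 to 13.2 normalized counts in libraries of cells alone and 14.3 to 21.7 in co-cultures. The defining markers Cd3d, Cd3g and Cd2 were at 0 in all libraries. Cd3e had 0 reads in cells alone and 2 in the co-cultures, Lck 0 and 9, Zap70 0 and 5, and Ptprc 3 and 14. Ptprcap, the marker with fewer reads, had 36 in cells alone and 24 in the co-cultures. All 19 markers together, with Lat, Cd28 and Tcf7 that LR73 cells also held, summed to 911 to 932 normalized counts alone and 863 to 889 in co-culture. Cd28 was called lower (log2 fold change -0.67, limma adjusted p = 0.0385), as was the epithelial marker Cdh1 (-0.23, adjusted p = 0.0439). Neither of these calls held in all alternatives, and Cd28 had 118 reads in cells alone and 68 in the co-cultures. The part of these marker changes in the members' results was not tested.

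**Figure D1:**
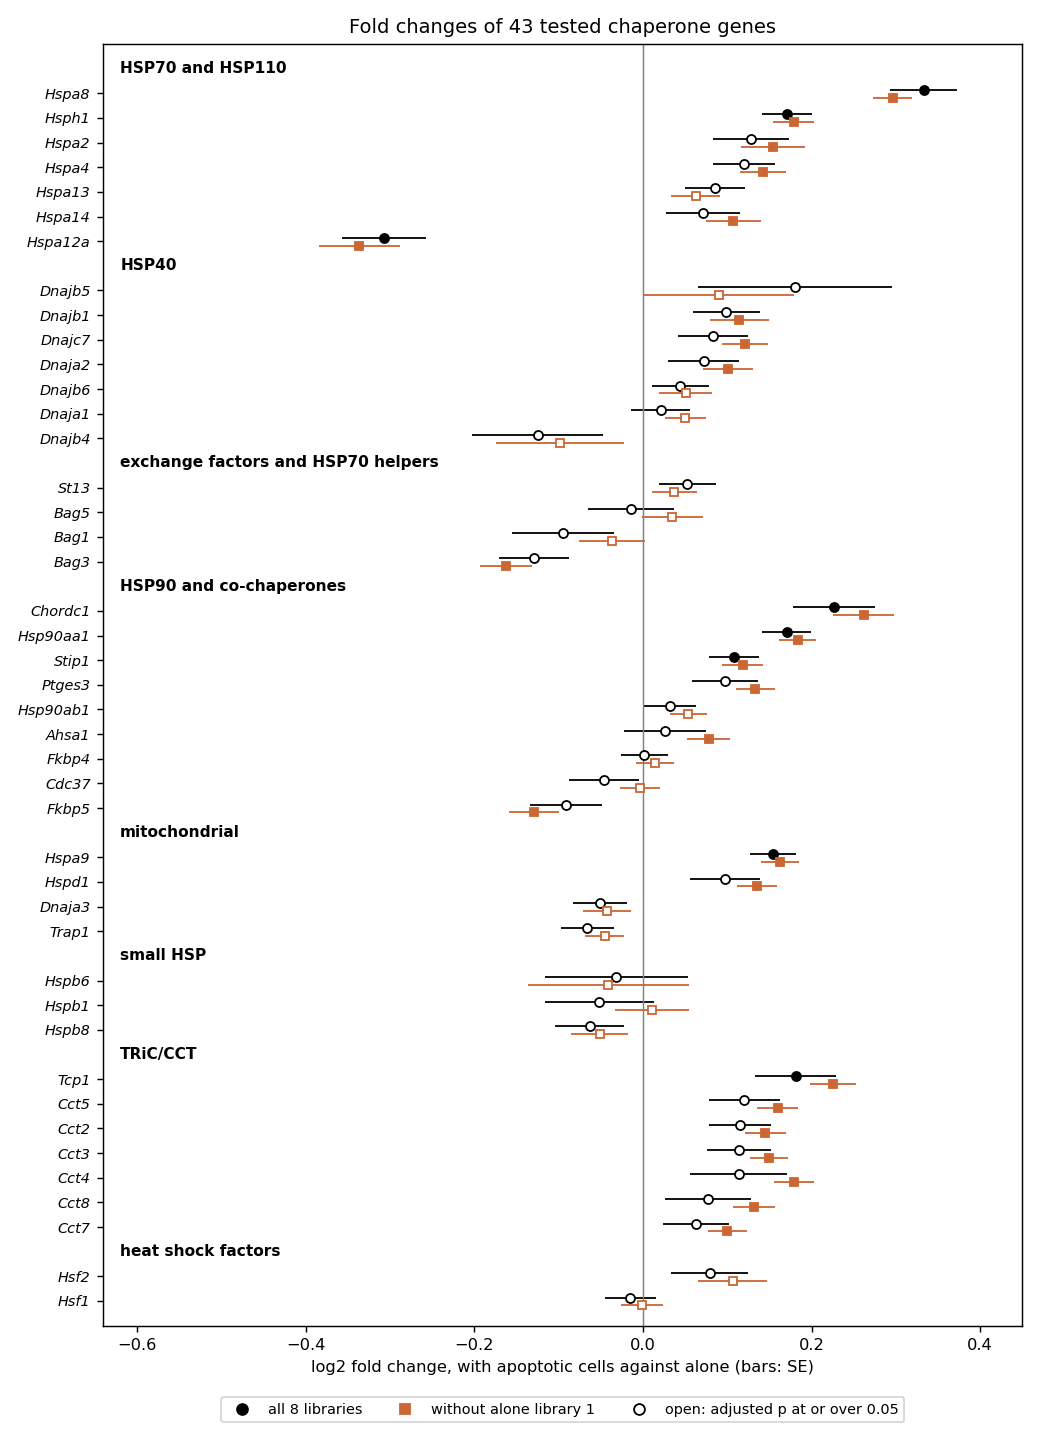
Log2 fold changes with SE for the 43 tested genes, grouped by role, with all 8 libraries (circles) and without alone library 1 (squares), filled where the limma adjusted p was under 0.05. With all libraries 7 genes were called higher and 1 lower, beside 6.36% and 5.31% of all genes tested. Without alone library 1 there were 22 and 3, with all 7 TRiC/CCT genes among the higher, beside 13.4% and 12.5% of all genes.

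Hspa8 encodes HSC70, the HSP70 that is made in unstressed cells and also uncoats clathrin vesicles. It stood at 40924, 44431, 45025 and 46651 normalized counts in libraries 1 to 4 of cells alone and at 56418, 55387, 56102 and 54859 in the co-cultures. Every co-culture library lay above every library of cells alone, and alone library 1 was the lowest of all. The log2 fold change was 0.33 (SE 0.04, limma adjusted p = 0.000621), and 0.30 without alone library 1. The difference between the group means was 11430 normalized counts, beside the trace of T cell markers given above, whose part in it was not tested. In bulk RNA, a change in the mix of cells and a change in RNA per cell cannot be told apart. How reads that fit both the hamster and the human transcript were counted is not given in the sources used here, and HSC70 is a highly conserved gene with many processed copies.

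Hsph1, the HSP110 that acts as an exchange factor for HSP70, had 8676, 8497, 8392 and 8584 normalized counts alone and 9529, 9394, 9929 and 9596 with apoptotic cells. The groups did not overlap, although alone library 1 was the highest of its group. The rise of Hsph1 was 0.17 in log2 units (SE 0.03, limma adjusted p = 0.00508). Hspa12a, a distant HSP70 relative, was at 667, 745, 698 and 727 normalized counts alone and at 592, 585, 561 and 554 in co-culture. All co-culture values were below all values of cells alone, and the log2 fold change was -0.31 (SE 0.05, limma adjusted p = 0.00368). The calls of Hspa8, Hsph1 and Hspa12a held in all 17 alternatives that were run.

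The other 4 tested HSP70 and HSP110 genes did not pass. For Hspa4, another HSP110, the log2 fold change was 0.12 (SE 0.04, limma adjusted p = 0.0627), for Hspa2, an HSP70 known from the testis, 0.13 (SE 0.05, adjusted p = 0.0981), and for Hspa14, an HSP70 that works at the ribosome, 0.07 (SE 0.04, adjusted p = 0.331). Without alone library 1 these 3 passed, at limma adjusted p = 0.000325, 0.00375 and 0.0166. Hspa13, a microsomal HSP70 relative, had no overlap between the groups (0.09, SE 0.04, limma adjusted p = 0.157) and did not pass in any alternative.

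**Figure D2:**
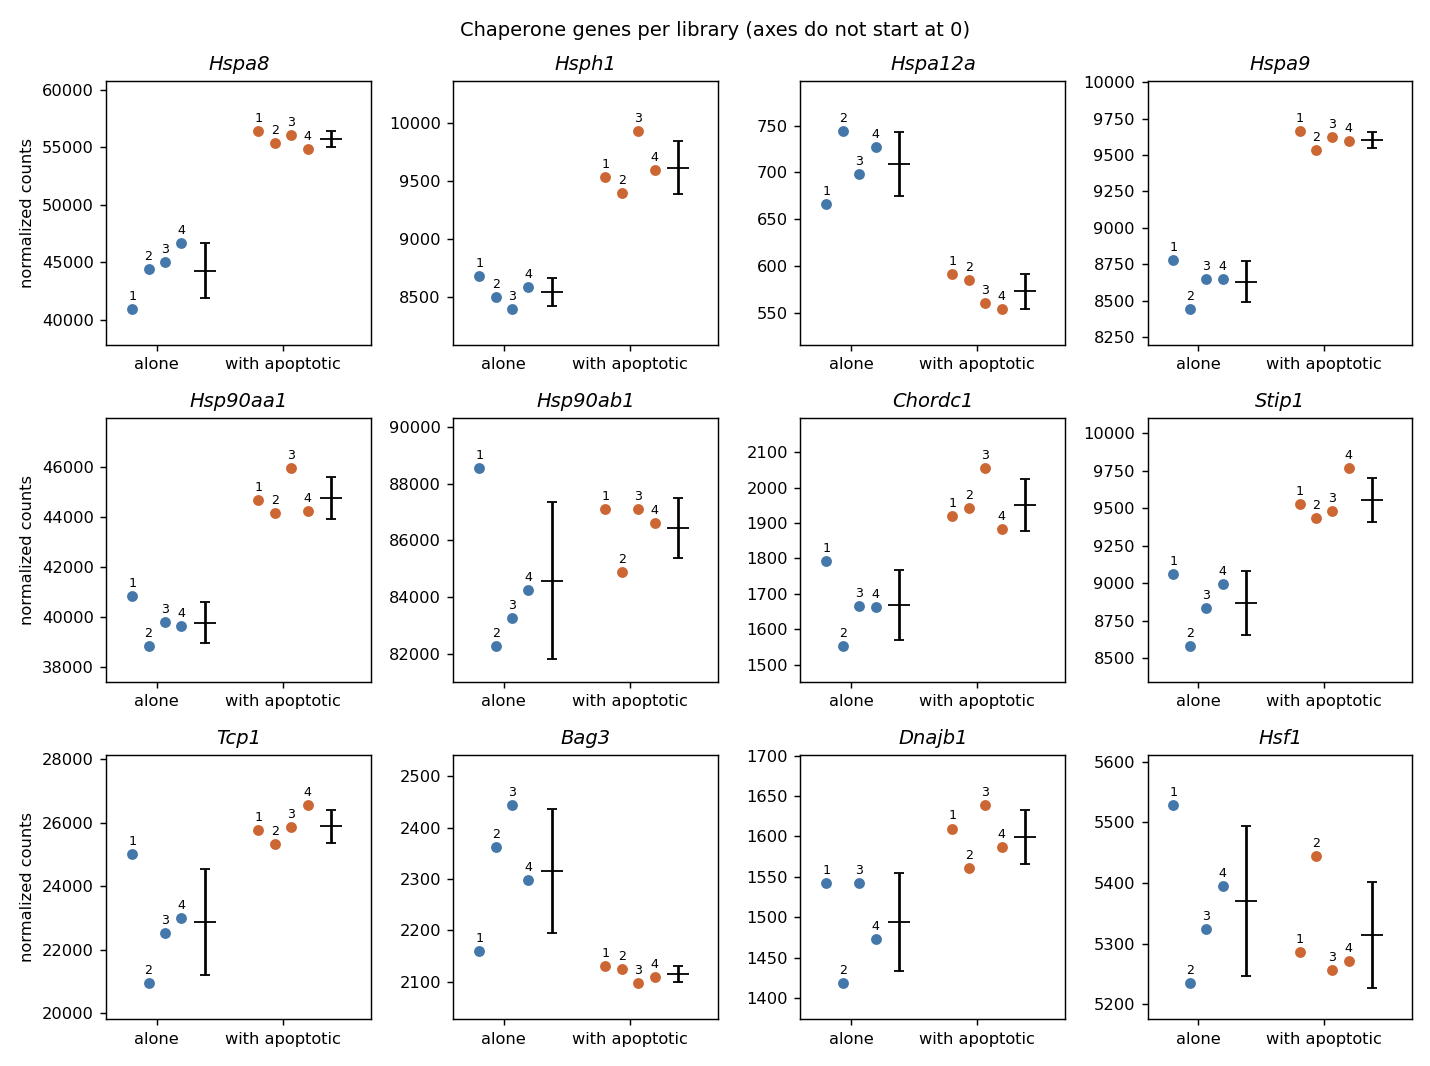
Normalized counts per library (points, with the replicate number) and group means with SD (n = 4) for 12 genes, on axes that do not start at 0. Hspa8 goes from a mean of 44258 to 55692 and Hspa12a from 709 to 573 with no overlap, while alone library 1 is the highest library for Hsp90ab1 and Hsf1.

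None of the 7 HSP40 genes passed the limma threshold with all libraries, 1 had an unadjusted p under 0.05 (14.3%, against 26.5% of all genes tested), and edgeR and DESeq2 called 0 of 7, where they called 11.6% and 12.2% of all genes. Dnajb1, the main heat-inducible partner of HSP70, had 1542, 1418, 1543 and 1473 normalized counts alone and 1610, 1561, 1639 and 1587 in co-culture. Those groups did not overlap, but the separation between the closest libraries was small beside the spread of the alone group (log2 fold change 0.10, SE 0.04, limma adjusted p = 0.144). Dnaja1 and Dnaja2, the constitutive J-domain partners of HSC70, were at 0.02 and 0.07, and Dnajc7, which also binds HSP90, was at 0.08. Dnajb6, a suppressor of aggregation, was at 0.04. Dnajb4 and Dnajb5, the 2 of these genes with the fewest reads, had -0.12 (SE 0.08) and 0.18 (SE 0.11). Without alone library 1, Dnajb1, Dnajc7 and Dnaja2 passed (limma adjusted p = 0.0188, 0.002 and 0.0139).

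Bag3, which links HSP70 to small heat shock proteins and to selective autophagy and is a classical target of HSF1, stood at 2159, 2362, 2444 and 2298 normalized counts alone and at 2130, 2125, 2097 and 2109 in co-culture. Each co-culture library was below each library of cells alone, with alone library 1 closest to them. The log2 fold change was -0.13 (SE 0.04, limma adjusted p = 0.0691), just outside the threshold, and -0.16 without alone library 1 (adjusted p = 0.000275). Its relatives Bag1 and Bag5 had -0.09 (SE 0.06) and -0.01 (SE 0.05), and the HSP70 cofactor St13 (HIP) 0.05 (SE 0.03), with limma adjusted p = 0.347 to 0.884. The sign for Bag5 turned without alone library 1 (0.03).

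Of the HSP90 system, Hsp90aa1, the stress-inducible cytosolic HSP90, had 40860, 38840, 39799 and 39632 normalized counts alone and 44678, 44172, 45966 and 44261 in co-culture. The groups were apart in every library, and the rise was 0.17 in log2 units (SE 0.03, limma adjusted p = 0.00478). The constitutive paralog Hsp90ab1 had 88549, 82264, 83246 and 84242 normalized counts alone and 87111, 84865, 87109 and 86612 with apoptotic cells. Alone library 1 exceeded all co-culture libraries here, and the difference did not pass (0.03, SE 0.03, limma adjusted p = 0.554, and 0.0729 without that library). The share of reads that near-identical copies took from either gene cannot be seen in these counts.

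Chordc1 (morgana), a CHORD domain protein that binds HSP90, stood at 1794, 1552, 1666 and 1662 normalized counts alone and at 1921, 1943, 2055 and 1884 in co-culture. No library of cells alone reached the co-culture range. Its rise of 0.23 in log2 units (SE 0.05, limma adjusted p = 0.0148) did not pass when co-culture library 3 was dropped (adjusted p = 0.0541). Stip1 (HOP), the adaptor that hands clients from HSP70 to HSP90, had 9058, 8579, 8835 and 8992 normalized counts alone and 9530, 9433, 9482 and 9768 with apoptotic cells. Its groups did not overlap and its rise was 0.11 (SE 0.03, limma adjusted p = 0.0405). This call was lost when any library other than alone library 1 was left out (adjusted p = 0.0703 to 0.126), with no low-value filter (0.0738) and under TMM scaling (0.0641).

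The remaining HSP90 co-chaperones did not pass with all libraries. Ptges3 (p23), which stabilizes the closed form of HSP90, was at 0.10 (SE 0.04, limma adjusted p = 0.139) and Ahsa1 (AHA1), which stimulates its ATPase, at 0.03 (SE 0.05, adjusted p = 0.765), and both passed without alone library 1 (adjusted p = 0.000143 and 0.0246). Fkbp5, an immunophilin of steroid receptor complexes and a target of glucocorticoids, had -0.09 (SE 0.04, limma adjusted p = 0.206), and -0.13 without alone library 1 (adjusted p = 0.00209). Its paralog Fkbp4 had 0.0017 (SE 0.03) and the kinase co-chaperone Cdc37 -0.05 (SE 0.04), with no call in any alternative. The sign for Fkbp4 was negative under TMM scaling (-0.0045) and in 4 of the 8 fits that left out a library (alone 2 or 3, co-culture 1 or 4), and that for Ahsa1 without alone library 2 (-0.0064).

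In the mitochondrial set, Hspa9 (mortalin), the matrix HSP70 that also drives protein import, had 8783, 8443, 8651 and 8648 normalized counts alone and 9666, 9533, 9625 and 9596 in co-culture. The co-culture libraries lay close together and above all libraries of cells alone. For Hspa9 the rise was 0.15 in log2 units (SE 0.03, limma adjusted p = 0.00541), and this call held in all 17 alternatives, as did that of Hsp90aa1. Hspd1, the matrix chaperonin HSP60, stood at 46929, 40970, 42496 and 43194 normalized counts alone and at 46272, 45461, 47671 and 46067 with apoptotic cells. Only alone library 1 reached into the co-culture range, and its change of 0.10 in log2 units (SE 0.04) did not pass with it (limma adjusted p = 0.166) but did without it (0.14, adjusted p = 0.000136). Trap1, the mitochondrial HSP90, was lower in every co-culture library (-0.07, SE 0.03) and Dnaja3, a mitochondrial J-domain protein, had -0.05 (SE 0.03), neither called with all libraries (limma adjusted p = 0.205 and 0.343) nor in any alternative.

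The 3 small heat shock proteins, which hold unfolded clients without ATP, did not pass in any setting. Hspb1 (HSP27 in human) stood at 1012, 795, 880 and 878 normalized counts alone and at 851, 861, 846 and 868 in co-culture. The alone libraries lay on both sides of the co-culture range (log2 fold change -0.05, SE 0.06, limma adjusted p = 0.645), and the sign turned without alone library 1 (0.011). Hspb8, the partner of Bag3, had -0.06 (SE 0.04) and Hspb6 -0.03 (SE 0.08), with a turned sign for Hspb6 without alone library 4 or co-culture library 1. By edgeR and DESeq2 0 of the 3 were called (against 11.6% and 12.2% of all genes), and 0 had an unadjusted p under 0.05 by limma (against 26.5%).

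The TRiC/CCT subunits had positive fold changes throughout, and for 6 of the 7 the call depended on alone library 1. Tcp1, the alpha subunit, had 25006, 20950, 22518 and 23008 normalized counts alone and 25773, 25323, 25877 and 26551 with apoptotic cells. The groups did not overlap, with alone library 1 next to the co-cultures. The rise of Tcp1 was 0.18 in log2 units (SE 0.05, limma adjusted p = 0.0352), and 0.22 without alone library 1 (adjusted p = 1.06e-06), but its call was lost when any other library was left out (adjusted p = 0.0568 to 0.102) and with no low-value filter (0.0528). Cct2, Cct3, Cct4 and Cct5 were each between 0.11 and 0.12, and Cct7 and Cct8 at 0.06 and 0.08, with limma adjusted p = 0.0688 to 0.364. Alone library 1 was the highest alone library for all 7 genes. Without it the co-culture libraries lay above the other alone libraries for all 7, where 16.7% of all genes tested did so. That library was the highest of its group in 39.4% of all genes tested, so the 16.7% is not a like background. All 7 were called higher without alone library 1 (limma adjusted p = 1.06e-06 to 0.00206). In that fit 13.4% of all genes tested were called higher, for the same reason not a like background. Cct4, named after its values were seen, showed this most plainly, with 14954 normalized counts in alone library 1, 12097, 12772 and 12520 in the other alone libraries and 14000, 13948, 14265 and 14219 in the co-cultures.

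Transcripts of the 2 heat shock factors did not pass. Hsf1 stood at 5528, 5235, 5325 and 5396 normalized counts alone and at 5287, 5445, 5257 and 5272 in co-culture. The ranges overlapped almost wholly, and the change of -0.01 in log2 units (SE 0.03) did not pass (limma adjusted p = 0.787). Hsf2, which can pair with HSF1, had 0.08 (SE 0.05, limma adjusted p = 0.298), and 0.11 without alone library 1 (adjusted p = 0.0573). HSF1 is known to be controlled largely at the protein, which was not measured here. By edgeR and DESeq2 0 of the 2 were called (against 11.6% and 12.2% of all genes), and 0 had an unadjusted p under 0.05 by limma (against 26.5%).

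**Figure D3:**
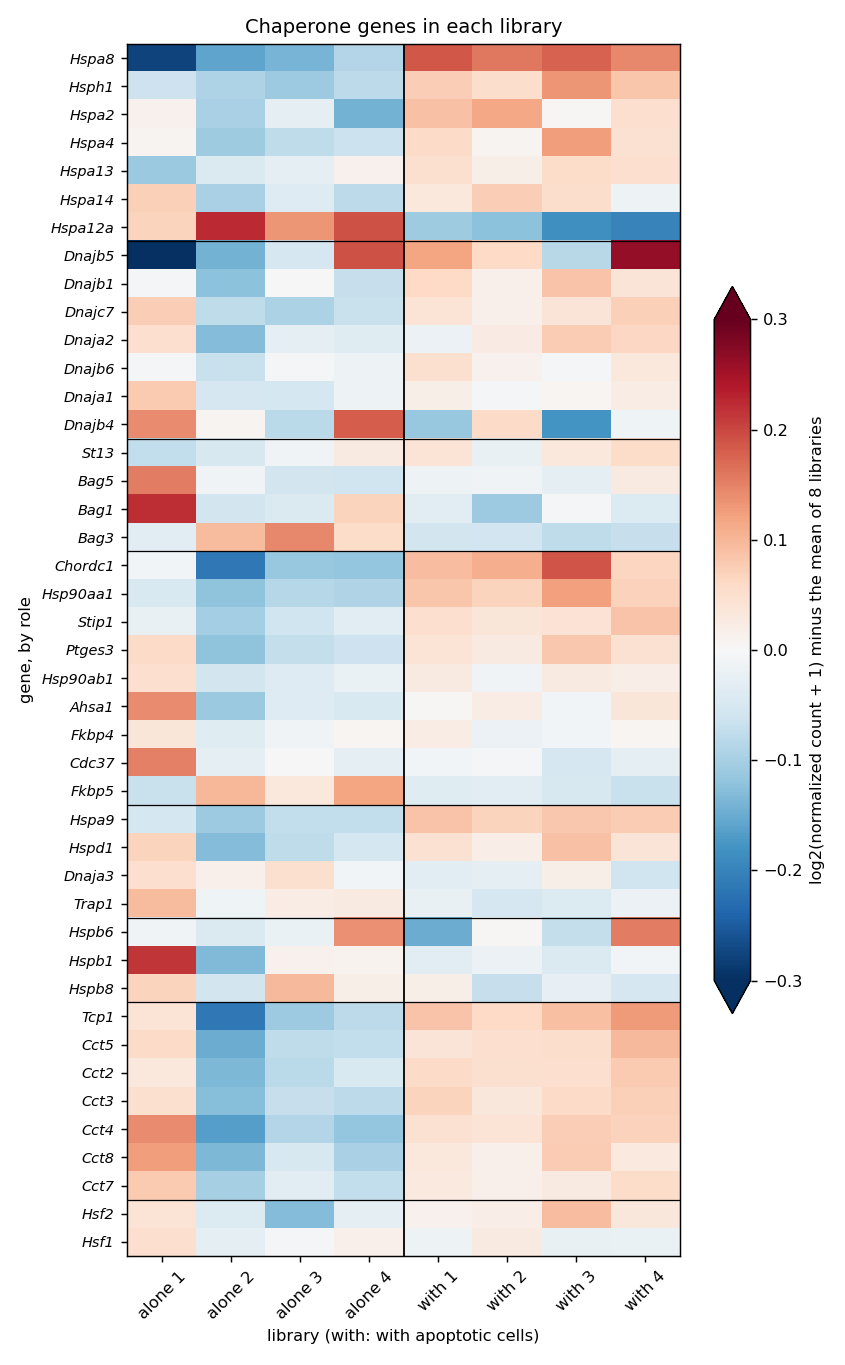
Deviation of log2(normalized count + 1) from the mean of the 8 libraries for the 43 tested genes (rows, by role) in each library (columns), with colours capped at 0.3 in either direction. Alone library 1 is above the other alone libraries in 31 of the 43 genes, the TRiC/CCT block among them, and below them for Hspa8.

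The 45 genes in the table together took 1.90, 1.77, 1.82 and 1.82% of the reads in libraries 1 to 4 of cells alone and 1.95, 1.92, 1.96 and 1.95% in the co-cultures. The co-culture shares were all above those of cells alone, with alone library 1 the closest. Positive fold changes were found for 30 of the 43 tested members (69.8%, against 50.4% of all genes tested). The groups did not overlap in 10 members that were higher (23.3%, against 11.4% of all genes) and 3 that were lower (6.98%, against 9.72%). Without alone library 1, 26 members were higher with no overlap (60.5%, against 16.7% of all genes). That library was the highest alone library in 72.1% of the members and 39.4% of all genes tested, so the 16.7% is not a like background. The spread between libraries was wider in cells alone, with a median SD of 5.19% of the mean over the members, than in co-culture, with 1.69%. It was 2.59% in cells alone without library 1.

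The number of members called moved with that library. Without it 22 members were higher and 3 lower, where 13.4% and 12.5% of all genes tested were called in these directions. The 8 members called with all libraries were among these 25. For the reason given above, the shares of all genes without alone library 1 are not a like background here either. Array weights, which let limma give a deviating library less weight, called 20 higher and 3 lower, beside 13.4% and 12.4% of all genes. With co-culture library 3 left out 4 members were higher, beside 3.3% of all genes. Leaving out any of the other 6 gave 5 members, beside 5.45, 3.68 and 4.58% of all genes without alone libraries 2, 3 and 4 and 3.08, 3.57 and 3.55% without co-culture libraries 1, 2 and 4. EdgeR and DESeq2 on recovered reads each called 8 members, the same 8 as limma, beside 11.6% and 12.2% of all genes. The authors' deposited table also called those 8, beside 12.2% of the genes to which it gave an adjusted p.

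Ratios within a library do not depend on its size factor, and 6 of them, chosen after the values were seen, are given as a description with no test. The ratio of Hsp90aa1 to Hsp90ab1 was 0.461, 0.472, 0.478 and 0.471 in cells alone and 0.513, 0.521, 0.528 and 0.511 in co-culture. Here alone library 1 had the lowest ratio of its group, and the inducible gene was higher relative to its constitutive paralog in all 4 co-cultures, by 0.14 on the log2 scale (0.13 without alone library 1). Hspa9 to Trap1, the mitochondrial HSP70 to the mitochondrial HSP90, went from 0.982 to 1.02 in cells alone to 1.16 to 1.18 in co-culture, a difference of 0.22 on the log2 scale. These are ratios of counts, which also depend on gene length, so only their change between the groups can be read.

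Hspa8 was higher relative to Hsph1 by 0.16 and relative to Hspa9 by 0.18 on the log2 scale, and by 0.12 and 0.13 without alone library 1. Tcp1 was higher relative to Cct7 by 0.12. None of these 3 ratios overlapped between the groups. The ratio of Hspa9 to Hspd1 overlapped between the groups, with a difference of 0.057 on the log2 scale (0.027 without alone library 1). None of the 6 ratios changed direction when any 1 library was left out.

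**Figure D4:**
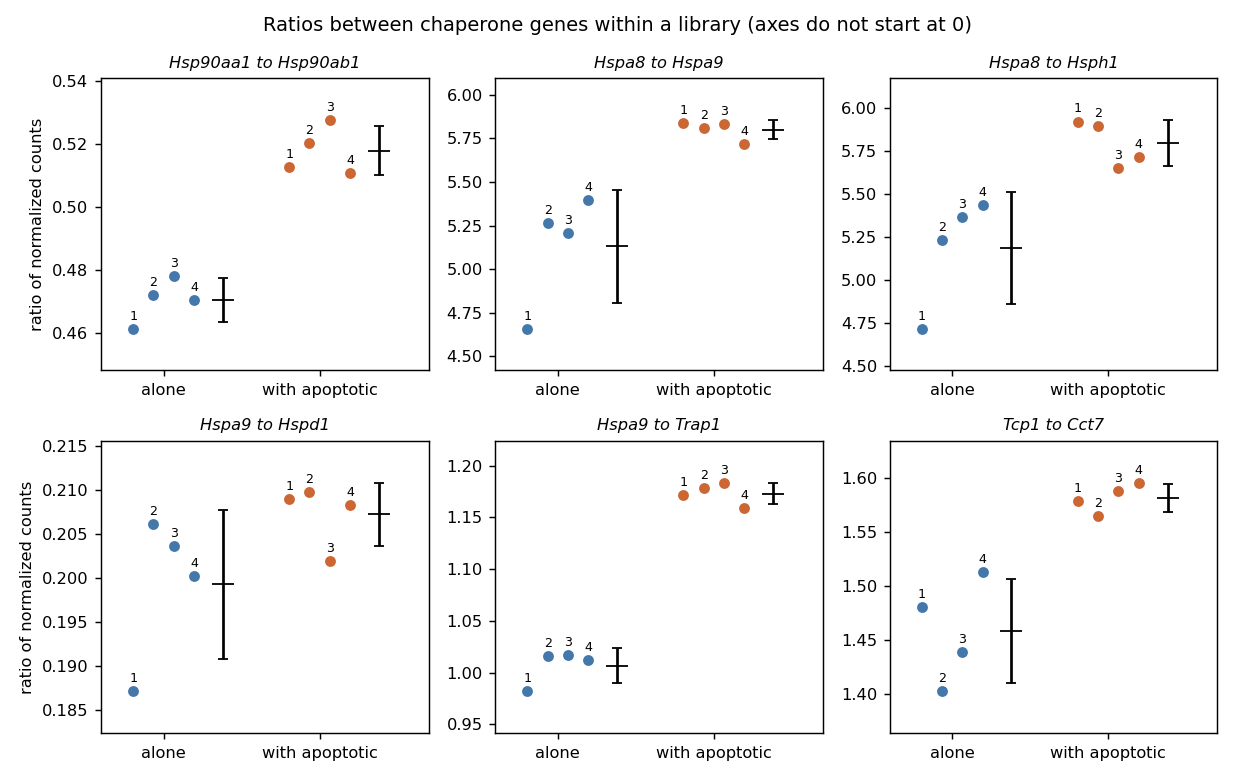
Ratios of normalized counts between 2 genes within each library (points, with the replicate number) and group means with SD (n = 4), on axes that do not start at 0. The co-culture libraries lie above all libraries of cells alone in 5 of the 6 ratios, and the ratio of Hspa9 to Hspd1 overlaps.

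A wider list of protein folding and quality control genes, of which 78 of 84 were tested, held 6 genes that rose and 2 that fell. The share that rose was 7.69%, near the 6.36% of all genes tested, and the share that fell was 2.56%, below their 5.31%. The median log2 fold change of this list was 0.012. Ppid (cyclophilin 40), an immunophilin of HSP90 complexes, had 520, 469, 465 and 455 normalized counts alone and 577, 593, 617 and 576 in co-culture. Its groups did not overlap, and its rise was 0.31 in log2 units (SE 0.05, limma adjusted p = 0.00594). Nudcd3, an HSP90 co-chaperone that stabilizes dynein, rose by 0.16 (SE 0.03, limma adjusted p = 0.0121), and both calls held in all alternatives. Cct6a, the zeta subunit of TRiC/CCT, rose by 0.13 (SE 0.03, limma adjusted p = 0.0139), and this did not hold without alone library 3 (adjusted p = 0.0507), co-culture library 1 (0.0564) or co-culture library 3 (0.0517). The ubiquilins Ubqln1 and Ubqln4, shuttle factors of the proteasome, and Nploc4, a cofactor of the segregase VCP, rose by 0.10, 0.11 and 0.12, calls that were lost when any library other than alone library 1 was left out (limma adjusted p = 0.0609 to 0.14). They were also lost with no low-value filter (adjusted p = 0.0721, 0.0802 and 0.0722) and under TMM scaling (0.0599, 0.0555 and 0.0547), and that of Ubqln4 by edgeR (0.0518).

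Hsf4 and Hsbp1 were the genes of the wider list that fell. Hsbp1, which binds HSF1 and restrains it, had 4152, 3457, 3711 and 3565 normalized counts alone and 3113, 3116, 3174 and 3293 in co-culture. The groups were apart, and it fell by 0.23 in log2 units (SE 0.05, limma adjusted p = 0.0221), which did not hold when alone library 3 or any of co-culture libraries 1 to 3 was left out (adjusted p = 0.0629 to 0.0735). Hsf4, the heat shock factor known from the lens, was low, with 68.4, 65.9, 52.8 and 65.2 normalized counts alone and 38.5, 48.7, 40.7 and 42.1 with apoptotic cells. Its values did not overlap either, and it fell by 0.56 (SE 0.13, limma adjusted p = 0.0181), which did not hold without co-culture library 1 (0.0596) or 3 (0.055). The counts of this list moved to 16 higher and 6 lower without alone library 1 (20.5% and 7.69%), where 13.4% and 12.5% of all genes were called. That library was the highest alone library in 45 of the 78 genes and in 39.4% of all genes tested. The shares of all genes are therefore not a like background here either. Leaving out any other library gave 2 or 3 higher (2.56 or 3.85% of the list, beside 3.08 to 5.45% of all genes tested). It gave 0 lower without co-culture library 1 or 3 and 1 without alone library 3 or co-culture library 2. In those fits 356 to 391 of 13489 to 13506 genes tested were lower.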

How the data were processed

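RNA was measured in 8 libraries, 4 per group. The submitters' processing notes name STAR, featureCounts and DESeq2 and give no versions. No genome build, annotation or strand setting is given in the sources used here. The authors deposited 1 table whose 8 columns of per-library signal are gene counts divided by a size factor, since 100% of the values were whole multiples of 1 read within 0.01 reads. The deposited log2 fold changes, the test score and the p-values, per the file headers, come from the authors' own test and were used only to count called members. The reads of an unnamed row (0.14 to 0.176% per library) were left out. Columns were matched to libraries by number and the letters AC.

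The members, gene lists and tests were chosen with earlier results of these data known. Limma-trend (limma 3.58.1, R 4.3.3) was fitted to log2(normalized count + 1) with group as the only term, keeping genes whose mean was at least 10. A fold change on this scale understates that of low genes. Alternatives were other filters, pseudocounts, TMM scaling, array weights, a replicate block, edgeR 4.0.16 and DESeq2 1.42.0 on recovered reads, and each library left out. The limma step was tested on simulated data with the same setting of spread between libraries for every gene and no deviating library. That simulation does not bear on the calls that moved with alone library 1. Library values were printed for called members and for a set fixed regardless of values, with Cct4 and the 6 ratios added after their values were seen, and of the wider list the called genes were named, at most 6 in each direction by adjusted p. The symbols of 42 of the 45 members were found in the RefSeq table of the species. No pair of replicates looked like 1 library deposited again (chi-square per degree of freedom of at least 1.56). Lists of fibroblast, T cell, epithelial and myeloid markers were read. Of 8 epithelial markers 1 reached a mean of 10 (summed level 237 to 256 normalized counts alone, 194 to 221 in co-culture), and of 6 myeloid markers 3 did (54.1 to 96.7 and 63.2 to 92.3). Figures were drawn with matplotlib 3.10.9.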

Additional observations from a re-analysis of the deposited data

Results flagged for a closer look

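In 4 of 86 sets of 4 libraries (43 members in 2 groups) 1 library lay far from the rest, with a gap to its nearest neighbour, as a share of the whole range, above Dixon's critical value. Chance gives about 1 in 20 such sets, and 4.65% were found. Alone library 1 was the highest for Dnajc7, with 3034 normalized counts against 2701 to 2751 in the other alone libraries, and for Cdc37, with 9028 against 7971 to 8125. Alone library 4 was the highest for Hspb6, with 167 normalized counts against 147 to 150.0. Co-culture library 2 was the highest for Hsf1, with 5445 normalized counts against 5257 to 5287.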

How the results depend on the processing

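Of the 51 genes followed through 17 alternatives (43 members and 8 of the wider list, with 16 alternatives for Hsf4, which was not tested at a mean of at least 100), 16 were called, 7 of them in every alternative, and 17 genes that were not called passed in at least 1. Over all genes, 858 were higher and 716 lower, with 1804 and 1674 under array weights, 498 and 400 with the replicate block, and between 416 and 1811 higher and between 356 and 1694 lower when 1 library was left out. Same-numbered libraries did not deviate together (correlations of -0.0898 to 0.0682), so the block is given only as an alternative. With it 6 members were higher and 1 lower, Stip1 being the call lost (adjusted p = 0.0913), and Ubqln1, Ubqln4 and Nploc4 were lost too (0.125, 0.0963 and 0.0901). The 7 members higher became 20 with array weights and 4 to 22 over left-out libraries, and the 1 lower became 3 with array weights and 1 to 3. In the wider list, the 6 higher became 3 with no low-value filter, TMM scaling or the replicate block, 17 with array weights and 2 to 16 over left-out libraries, and the 2 lower became 1 at a mean of at least 100, 6 with array weights and 0 to 6. The members' median log2 fold change of 0.072 was 0.089 with array weights and 0.045 to 0.100 over left-out libraries. The sign turned for 5 members that were not called. Fkbp4 was at -0.0045 under TMM scaling and -0.010 to 0.014 over left-out libraries, Bag5 at 0.034 with array weights and -0.036 to 0.035, Hspb1 at -0.10 to 0.011, Hspb6 at -0.088 to 0.012 and Ahsa1 at -0.0064 to 0.078. The cause of these changes was not tested.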
